A study of Mesocricetus auratus with 7 samples.

Results

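Fully grown germinal vesicle (GV) oocytes of fertile golden hamsters (Mesocricetus auratus) with 1 mutant copy of Mov10l1 (HET) were compared with those of wild-type (WT) hamsters. The comparison used the 2 HET and 2 WT libraries, 4 of the 7 libraries of the study, chosen by the genotype in their labels. It covered the 8390 of 22285 genes in the count table whose mean over these 4 libraries was 2 CPM or more. CPM is the estimated read count of a gene per 1000000 counts of its library. These 8390 genes took at least 99.7% of the counts in each library.

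Each library came from the oocytes of an individual female, as a pool of 6 to 12 cells. WT 1 was from an animal of 37 weeks and WT 2 from one of 17 weeks. HET 2 and HET 3 were from animals of 40 and 36 weeks. The mutant allele lacks exon 20 of Mov10l1, which encodes part of the helicase domain, and was made with CRISPR guides in introns 19 and 20. The allele was transmitted by a single founder female and then bred with outbred WT animals, so the mutant copies descend from 1 edited chromosome. The remaining 3 libraries, from homozygous mutant (KO) females of 36 to 45 weeks, which were sterile, entered the model only to help estimate the spread. Library totals of the 4 compared libraries were 24242442 (WT 1), 31434169 (WT 2), 30208354 (HET 2) and 27916381 (HET 3) counts.

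Germ cells need the RNA helicase MOV10L1 to make piRNAs, small RNAs bound by PIWI proteins. In germ cells, PIWI proteins guided by piRNAs silence retrotransposons and some mRNAs. Mice lack Piwil3, whereas hamsters and humans have it and express it in oocytes. A GV oocyte is held in the first meiotic block and lives on mRNA stored during growth, so its RNA content reflects both past transcription and mRNA stability.

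The sequences that define the mutant allele are the 4 genomic targets of the guides, a pair on each side of exon 20. They are given because they mark the ends of the deletion that separates HET from WT.
Intron 19, target 1: gggtatcacatgacttgggg
Intron 19, target 2: ggtgttgggatcatagtgggg
Intron 20, target 1: tctccactcttccatgtgggg
Intron 20, target 2: taccattacatttgtcagggg

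Few genes were called between HET and WT oocytes. Of 8388 genes tested at this level, 37 were called (DESeq2, adjusted p under 0.01), which is 0.441%. Of these, 26 were raised in HET (0.31%) and 11 were lowered (0.131%). Over all 11275 genes tested without the limit on level, 50 were called (0.443%), of which 13 lay below 2 CPM. The clearest were Pdzrn4 and Epb41l1, which rose, and Trmt6, which fell. These 3 genes were the only ones of the 37 called again whichever HET or WT library was left out. Under the quasi-likelihood test of edgeR only Pdzrn4 was called among 11211 genes tested (0.00892%), whereas 659 genes (5.88%) had an unadjusted p under 0.05.

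**Figure D1:**
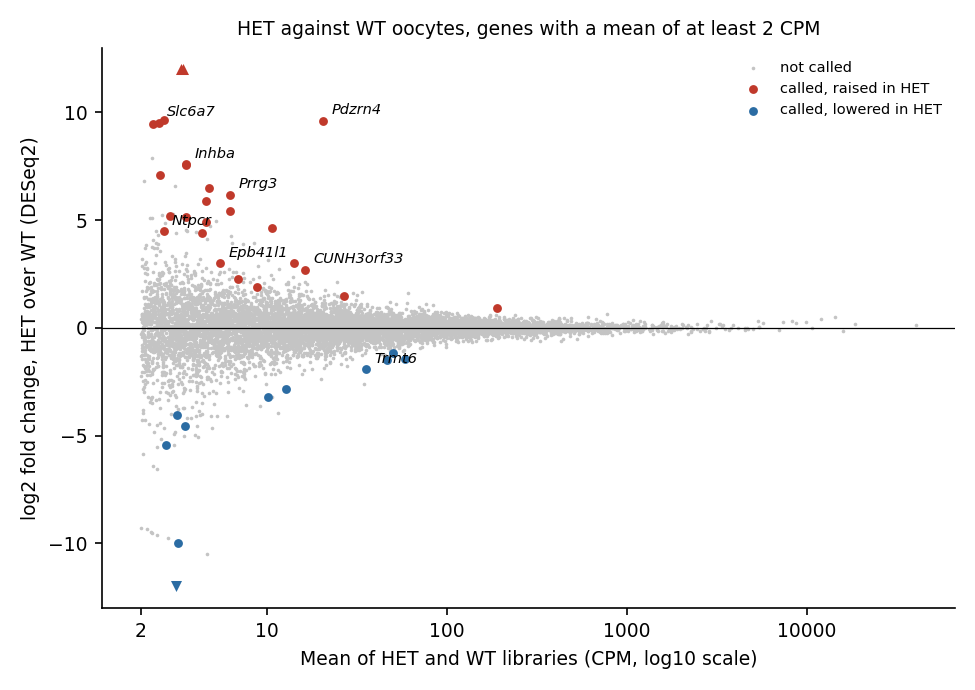
DESeq2 log2 fold change of HET over WT (y axis) against the mean level of the 4 libraries in CPM (x axis, log10 scale) for genes of 2 CPM or more. Red and blue points are the 26 raised and 11 lowered genes called at an adjusted p under 0.01, triangles are called genes beyond the axis limits, and most called genes lie at the left, at low levels.

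Mov10l1 itself (ENSMAUG00000003667) was examined first. Its level was 13.8 and 36.2 CPM in the WT libraries and 15.9 and 18.8 CPM in the HET libraries. Both HET values lay between the WT values, so that the genotypes overlapped. In the KO libraries Mov10l1 was at 3.26 to 6.40 CPM, below every WT and HET library. The log2 fold change of HET over WT was −0.48 (SE 0.559, 95% interval −1.58 to 0.61) and was not called (DESeq2 adjusted p 0.909). The direction rested on WT 2, the youngest animal. Without WT 2 the log2 fold change was 0.32 (DESeq2 adjusted p 1), and with age as a covariate it was 0.19. The count covers all exons of the gene, so transcripts of the mutant allele can enter it through the exons that remain, and the value does not separate the alleles. Levels are relative to the library total, so they do not give the amount of RNA per oocyte.

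Pdzrn4 (ENSMAUG00000020766), which encodes a PDZ domain protein with a RING finger of the type found in ubiquitin ligases, had the smallest adjusted p. It was near absent from both WT libraries, at 0.0825 and 0.0318 CPM, which are 2 counts and 1 count. In HET it was at 47.1 and 35.0 CPM, or 1423 and 978 counts. The libraries of the genotypes were thus far apart, and the KO libraries were higher still, at 91.3 to 118.6 CPM. The ratio of pooled HET counts to pooled WT counts, scaled by library totals, was 767, with a 95% counting interval of 262 to 3720. It was called by DESeq2 (adjusted p 3.41e-23) and by edgeR (adjusted p 8.70e-06), and in all 18 refits with other settings or libraries. In the study's gene lists Pdzrn4 stands on the same scaffold of the MesAur1.0 assembly as Mov10l1. The lists place 26 genes besides Mov10l1 on that scaffold, of which 17 were tested and 1, Pdzrn4, was called. At an unadjusted p under 0.05, DESeq2 found 4 of the 17. Over all genes tested, 0.443% were called and 9.86% had an unadjusted p under 0.05. These genes were in the study's lists because they changed in its own oocyte or testis comparisons, and are not a complete set of neighbours.

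Trmt6 (ENSMAUG00000008719), the non-catalytic subunit of an enzyme that methylates adenosine in tRNAs, was lowered with very little spread. Its level was 56.4 and 56.7 CPM in WT against 14.9 and 14.4 CPM in HET. The pair of libraries of each genotype almost coincided, and the WT mean was 3.86 times the HET mean. The log2 fold change was −1.91 (SE 0.283, DESeq2 adjusted p 7.75e-08). The KO libraries, at 20.0 to 22.1 CPM, also lay below WT. It was called in 17 of the 18 refits and lost with edgeR (log2 fold change −1.90, adjusted p 0.840). Of the 9 called genes with a symbol, 8 were named from the study's oocyte list of differences between KO and WT. A KO level apart from WT is thus no separate support in those 8.

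Epb41l1 (ENSMAUG00000004779), a protein that links membrane proteins to the cytoskeleton, was raised from 0.907 and 1.59 CPM in WT to 10.1 and 9.49 CPM in HET. HET libraries were well above WT libraries, and KO libraries were at 12.9 to 18.3 CPM. The log2 fold change was 3.01 (SE 0.511, DESeq2 adjusted p 1.45e-05). It was called in 16 of the 18 refits. The exceptions were edgeR (adjusted p 0.840) and the DESeq2 fit without the KO libraries (adjusted p 0.0739).

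Besides these, 6 called genes had a symbol, and all were raised in HET. Prrg3, a membrane protein with a vitamin K-dependent Gla domain, was at 0.248 and 0.0954 CPM in WT and at 8.18 and 16.5 CPM in HET. Ntpcr, a nucleoside triphosphatase, was at 0.248 and 0.223 CPM in WT and at 6.82 and 3.40 CPM in HET. In both, the HET libraries were apart from the WT libraries but differed from each other, by 1.91-fold and 1.78-fold on the CPM + 1 scale. CUNH3orf33, an open reading frame without a well-known role, was at 1.65 and 7.44 CPM in WT and at 38.1 and 17.9 CPM in HET (ratio of pooled counts 5.77, DESeq2 adjusted p 0.00986). Its WT libraries differed 3.19-fold on the CPM + 1 scale. Ntpcr (DESeq2 adjusted p 0.00928) and CUNH3orf33 lay close to the threshold and were called in 5 and 8 of the 18 refits, and Prrg3 (DESeq2 adjusted p 0.00207) in 12. Ntpcr was lost without each HET or WT library in turn (DESeq2 adjusted p 0.0277 to 0.108) and with age as a covariate (0.0815). CUNH3orf33 was lost without WT 1 (0.0939) and without HET 2 (0.155), and Prrg3 without WT 2 (0.0420), HET 2 (0.0118) or HET 3 (0.109) and with age (0.0430).

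Another 3 of the 6 stood high in HET 3 and not in HET 2. Inhba, the inhibin beta A subunit of activins and inhibins, was at 0.0413 and 0.0318 CPM in WT, at 0.397 CPM in HET 2 and at 13.8 CPM in HET 3. Slc6a7, a brain proline transporter, had no count in either WT library, 0.132 CPM in HET 2 and 9.92 CPM in HET 3. C9, a component of the complement membrane attack complex, had no count in WT 1, WT 2 or HET 2 and 382 counts (13.7 CPM) in HET 3. For these genes the HET mean stands for 1 animal, and 96.7%, 98.7% and 100% of their summed level came from HET 3. In C9, where HET 2 equals both WT libraries, the genotypes overlap although the gene was called (DESeq2 adjusted p 0.00224). Without HET 3, Inhba and Slc6a7 were not called (DESeq2 adjusted p 0.426 and 0.513), and C9 had no count left to compare. All 3 calls were also lost with edgeR, with age as a covariate, with a replicate block and without either WT library. The KO libraries held 2.26 to 12.6 CPM of Inhba and 1.18 to 5.62 CPM of Slc6a7.

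**Figure D2:**
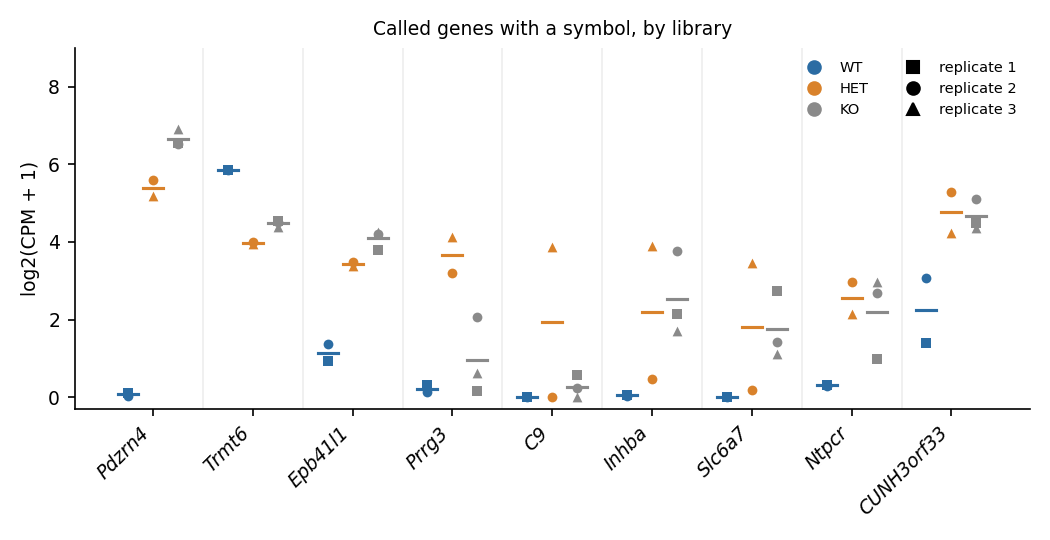
Level as log2(CPM + 1) of the 9 called genes with a symbol in each library, with WT in blue, HET in orange and KO in grey, marker shapes for the replicate number and short lines for group means. Trmt6 and Epb41l1 show tight pairs, whereas C9, Inhba and Slc6a7 are high in HET 3 and not in HET 2.

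The remaining 28 called genes had no symbol here. Of the raised ones, ENSMAUG00000019248 had no count in WT 1, 0.573 CPM in WT 2, and 13.9 and 10.5 CPM in HET. In the KO libraries it was at only 1.89 to 2.53 CPM, so the HET libraries lay above both other genotypes. ENSMAUG00000011217 had the same order, with 0.0825 and 0 CPM in WT, 6.16 and 3.98 CPM in HET and 0.462 to 0.560 CPM in KO. The ratio of pooled counts, HET to WT, was 37.8 (95% counting interval 23.8 to 64.2) for the former and 142 (39.0 to 1180) for the latter. These intervals cover counting error only. The DESeq2 95% intervals of the log2 fold change, which include the spread between libraries, were 3.41 to 7.48 and 4.19 to 10.0. The call of ENSMAUG00000019248 was lost without HET 2 (DESeq2 adjusted p 0.0382) and without HET 3 (0.0151), and its log2 fold change of 5.44 was 4.49 without WT 1, while WT 1 alone had no count. The call of ENSMAUG00000011217 was lost without any of the 4 libraries (DESeq2 adjusted p 0.0127 to 0.0650) and with age as a covariate (0.0831), and its WT level rests on 2 counts in WT 1. Of the lowered ones, ENSMAUG00000000484 was at 8.95 and 3.02 CPM in WT and 0.430 and 0.287 CPM in HET, whereas the KO libraries were at 13.3 to 27.01 CPM. Here HET lay below both other genotypes. ENSMAUG00000021922 was at 22.6 and 14.2 CPM in WT, 1.29 and 2.65 CPM in HET and 3.16 to 5.48 CPM in KO. The log2 fold changes of the lowered pair were −4.03 (SE 0.746) and −3.22 (SE 0.620), both called by DESeq2 (adjusted p 0.000121 and 0.000243). With only HET and WT libraries fitted, ENSMAUG00000000484 was not called (DESeq2 adjusted p 0.0924). With a replicate block, ENSMAUG00000021922 was not called (DESeq2 adjusted p 0.0332). Both calls were lost without WT 1, with log2 fold changes of −2.99 and −2.80 (DESeq2 adjusted p 0.0331 and 0.118), and that of ENSMAUG00000021922 also without HET 2 (−2.84, DESeq2 adjusted p 0.0106).

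At higher levels there were fewer calls. Of the 4288 genes at a mean of 20 CPM or more, 7 were called, with 3 raised and 4 lowered. They were Pdzrn4, Trmt6 and 5 genes without a symbol, which were called in only 5 to 10 of the 18 refits. The most abundant called gene, without a symbol, was at 116 and 151 CPM in WT and at 214 and 282 CPM in HET. Its log2 fold change was 0.92 (SE 0.208, DESeq2 adjusted p 0.00374), and the KO libraries, at 175 to 186 CPM, lay between. This gene was called in 10 of the 18 refits. Its call was lost with edgeR, with only HET and WT libraries fitted and with a replicate block. It was also lost without WT 1, without HET 3 and without each KO library. The 3 lowered genes of this set without a symbol had WT values of 58.5 to 105 CPM and HET values of 23.4 to 34.2 CPM. Their ratios of pooled counts were 2.37 to 2.94, WT to HET. They were called in 5 to 10 of the 18 refits, and each call was lost with edgeR and with age as a covariate. Of the 37 calls, 20 had a mean under 5 CPM, and 9 of the raised genes had at most 3 counts in both WT libraries together.

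**Figure D3:**
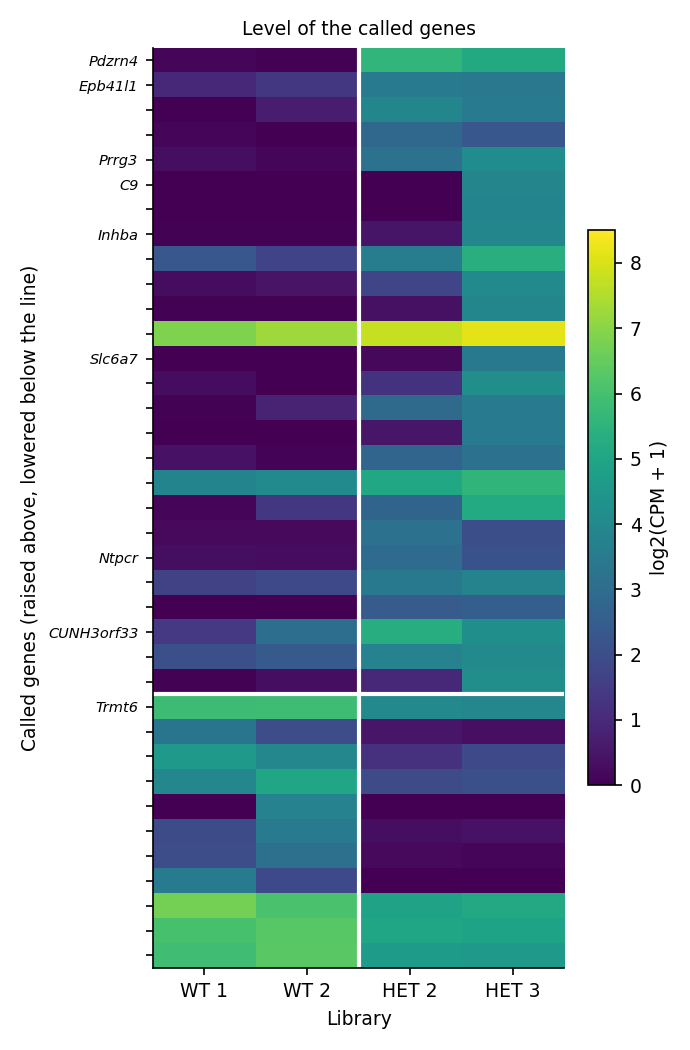
Level as log2(CPM + 1), by colour, of the 37 called genes (rows, raised above the white line and lowered below it, each in order of adjusted p) in the 4 libraries (columns), with symbols where known. Many raised genes are bright in HET 3 and dark in HET 2.

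The separation of the genotypes was uneven among the called genes. In 34 of the 37 the HET pair was wholly above or wholly below the WT pair, and in 3 the genotypes overlapped. Over all 8390 genes, 28.7% did not overlap, with HET above in 1066 and below in 1342, so lack of overlap is common with 2 libraries against 2. HET 3 held the highest value of 19 called genes, HET 2 of 7, WT 2 of 7 and WT 1 of 4. In 10 called genes, over 80% of the summed level came from HET 3, and in 1 from WT 2. In 5, at least 10 counts were found in 1 library only.

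Leaving out a HET or WT library replaced much of the list, and leaving out a KO library did not. Without KO 1, KO 2 or KO 3, 38, 28 and 32 genes were called, of which 31, 27 and 27 were among the 37. Without HET 3, 31 genes were called, of which 6 were among the 37. Without HET 2, 88 were called (30 raised, 58 lowered), with 15 of the 37. Without WT 2, 39 were called with 12 of the 37, and without WT 1, 33 with 11. With age as a covariate, 33 were called with 11 of the 37. A genotype left with 1 library was assumed to vary like the others. In the fits without a HET or WT library, apart from that without HET 2, the number of calls was thus similar, but most of the 37 genes were not among them.

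The spread within each genotype was similar in size to the difference between libraries of different genotypes. On the log2(CPM + 1) scale, the median absolute difference over the 8390 genes was 0.436 between WT 1 and WT 2 and 0.534 between HET 2 and HET 3. In the 4 pairs of a HET with a WT library it was 0.423 to 0.491. More than 2-fold differences were found in 1750 genes (20.9%) within the WT pair and in 2007 genes (23.9%) within the HET pair. Between genotypes the share was 18.8 to 23.6%. The HET pair was thus further apart than any HET library was from a WT library, and the WT pair lay within the range of the pairs between genotypes, by both measures. Pearson correlations across genes, which are not independent replicates, were 0.925 within WT, 0.919 within HET and 0.916 to 0.933 between genotypes. Counts within the WT pair and within the HET pair differed far more than sampling noise, with chi-square values per gene of 98.8 and 252, so neither pair was a library deposited in duplicate.

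Group means had a median absolute difference of 0.303, with 922 genes (10.99%) more than 2-fold apart. Averaging 2 libraries lowers such differences by itself, so these values are not comparable with those of single libraries. In 1464 of the 8390 genes the difference of the means exceeded the spread within both pairs, and in 511 of these it was also over 2-fold. At an unadjusted p under 0.05, DESeq2 found 778 genes (9.28%) at this level, of which 37 passed after adjustment.

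How large a difference could be called depended on level. Between 2 and 5 CPM (1613 genes), 43.3% of genes differed more than 2-fold within WT and 43.1% within HET. At 20 to 100 CPM (2583 genes) the shares were 10.8% and 15.1%, and at 100 to 1000 CPM (1563 genes) they were 1.09% and 3.07%. The median standard error of the log2 fold change fell from 1.07 at 2 to 5 CPM to 0.645 at 5 to 20 CPM, 0.372 at 20 to 100 CPM and 0.236 at 100 to 1000 CPM. The weakest call over all genes tested, below 2 CPM, had an unadjusted p of 4.43e-05. At the median standard error, a gene needed a 20.8-fold difference at 2 to 5 CPM to reach this p, 6.20-fold at 5 to 20 CPM, 2.87-fold at 20 to 100 CPM and 1.95-fold at 100 to 1000 CPM. A smaller estimate than these would not be called for a typical gene. True differences of about this size can be missed, and no count of calls shows that smaller ones are absent. Among the 142 genes over 1000 CPM, 6.34% differed more than 2-fold within the HET pair and 0% within the WT pair, and none was called.

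**Figure D4:**
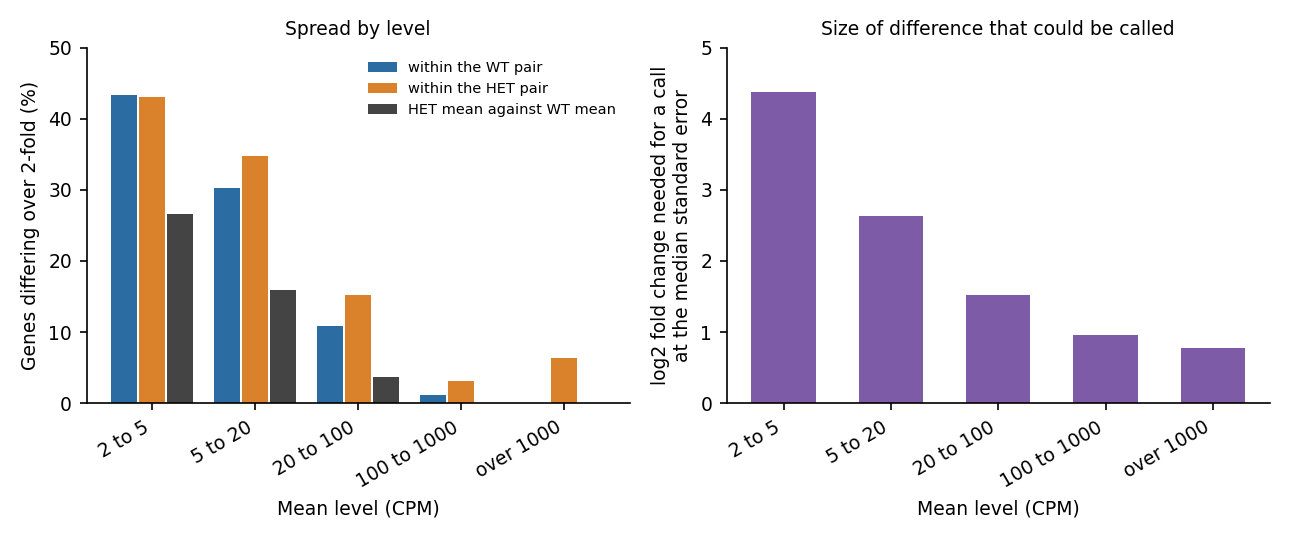
Left, share of genes (%) that differed more than 2-fold within the WT pair (blue), within the HET pair (orange) and between the genotype means (dark grey), by mean level in CPM, on the log2(CPM + 1) scale. Right, log2 fold change that a gene with the median standard error of its level needed for a call, falling from 4.38 at 2 to 5 CPM to 0.78 over 1000 CPM.

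Of 27 listed piRNA pathway genes, 18 had a known row, and 17 of them had a mean of at least 2 CPM. None of the 18 was called by DESeq2 or by edgeR, beside 0.443% and 0.00892% of all genes tested. An unadjusted p under 0.05 was found for 3 of the 18 with each tool, beside 9.86% (DESeq2) and 5.88% (edgeR) of all genes tested. The median log2 fold change of the 17 was −0.05, beside 0.01 over all genes at this level, with a range of −2.18 to 0.84. In 5 of the 17 (29.4%) the genotypes did not overlap, a share close to the 28.7% of all 8390 genes.

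Among the PIWI proteins, which carry piRNAs, Piwil1 was at 60.8 and 72.6 CPM in WT and 71.2 and 146 CPM in HET. HET 2 lay within the WT range and only HET 3 stood above it (log2 fold change 0.72, SE 0.307, DESeq2 adjusted p 0.332). Without HET 2, Piwil1 was called (log2 fold change 1.10, DESeq2 adjusted p 0.00112), and without HET 3 its log2 fold change was 0.20 (DESeq2 adjusted p 0.896). Piwil3 was at 102.3 and 80.04 CPM in WT and 88.2 and 106 CPM in HET, and the genotypes overlapped. Piwil2 and Piwil4 were scarce, with 2.06 and 5.34 CPM in WT against 0.397 and 1.22 CPM in HET for Piwil2. Piwil4 was at 2.3 and 2.7 CPM in WT and 3.2 and 5.7 CPM in HET. Neither was called, with intervals of the log2 fold change of −5.07 to 0.70 and −0.68 to 2.36.

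Of the factors that process piRNAs, Pnldc1, the exonuclease that trims their ends, was at 373 and 360 CPM in WT and 409 and 540 CPM in HET (log2 fold change 0.39, SE 0.196, DESeq2 adjusted p 0.481). Henmt1, which methylates their ends, was at 32.4 and 30.9 CPM in WT and 22.7 and 52.5 CPM in HET, so that the HET values stood on both sides of WT. Gtsf1, a cofactor of PIWI proteins, was at 47.5 and 29.4 CPM in WT and 28.7 and 21.6 CPM in HET, and was not called (DESeq2 adjusted p 0.757).

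Of the Tudor domain proteins, which organise piRNA factors, Rnf17 had the clearest difference. It was at 114 and 112 CPM in WT and 63.1 and 77.9 CPM in HET, with both HET libraries below WT. The log2 fold change was −0.65 (SE 0.256, 95% interval −1.16 to −0.15) and was not called (DESeq2 adjusted p 0.258). Tdrd1, Tdrd5, Tdrd7 and Tdrd9 overlapped between genotypes, with log2 fold changes of −0.06, −0.05, −0.05 and 0.28. Ddx4, an RNA helicase of germ granules, was the most abundant of the list, at 579 and 619 CPM in WT and 553 and 663 CPM in HET (95% interval of the log2 fold change −0.32 to 0.42). Mael, Tex15 and Btbd18 overlapped as well, with log2 fold changes of −0.34, −0.08 and 0.45, and Morc1 was below 2 CPM. The standard error was 0.190 for Ddx4, whereas it was 1.47 for Piwil2 and 1.25 for Btbd18, so that only far larger differences could be seen in the latter.

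**Figure D5:**
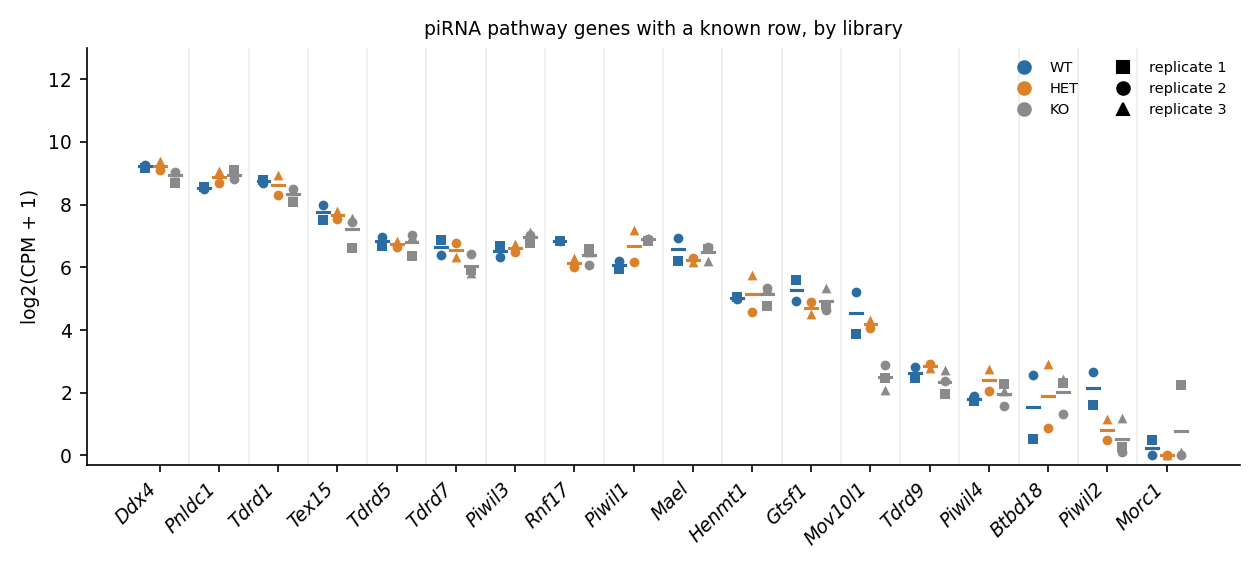
Level as log2(CPM + 1) of the 18 piRNA pathway genes with a known row in each library, in order of mean level, with colours and marker shapes as for the called genes and short lines for group means. WT and HET points overlap in most genes, Mov10l1 is lowest in the grey KO points, and both HET points of Rnf17 lie below WT.

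The oocyte identity of the libraries was checked with markers that had a known row, 5 of 25 listed. Nobox, a transcription factor of oocytes, was at 168 and 167 CPM in WT and 162 and 172 CPM in HET. Dazl and Ybx2, which bind germ cell mRNA, were at 124 to 243 CPM in all 4 libraries. Kit, the receptor of Kit ligand, was at 64.0 and 102.6 CPM in WT and 50.1 and 134 CPM in HET, where the HET libraries lay on both sides of WT. Sohlh1, a transcription factor of early oocytes, was at 0.0412 CPM in WT 1 and had no count in the others. None of the 4 tested was called by DESeq2 or edgeR, and none had an unadjusted p under 0.05 in either. With 4 genes, 0 is near the shares over all genes tested (0.443% and 0.00892% called, 9.86% and 5.88% under 0.05). Zp1, Zp2, Zp3, Gdf9 and Bmp15 had no known row and were not analysed here.

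Markers of granulosa and cumulus cells, which surround the oocyte, were examined next. Of 20 listed, 6 had a known row, and 1 of the 4 tested by DESeq2, Inhba, was called, with most of its level in HET 3. Over all genes tested the share called was 0.443%. An unadjusted p under 0.05 was found for 3 of 4 with DESeq2 and for 2 of 3 with edgeR, beside 9.86% and 5.88% of all genes tested. Their summed level was 2.27 and 1.89 CPM in WT, 6.83 and 18.1 CPM in HET and 3.00 to 16.9 CPM in KO. Inhbb, the inhibin beta B subunit, was at 0 and 0.382 CPM in WT and 6.31 and 4.26 CPM in HET, and was not called (DESeq2 adjusted p 0.253). Inhba and Inhbb, the 2 members with a mean of at least 2 CPM, made up nearly all of the summed HET level. They reached that mean only through HET, with WT means of 0.0365 and 0.191 CPM. That they lay above WT in both HET libraries is therefore no separate support. In HET 2, Inhba rested on 12 counts. The members lower in HET had their level in 1 WT library each. Fst, which encodes follistatin, was at 2.15 and 0 CPM in WT and 0 CPM in both HET libraries, and Inha, the inhibin alpha subunit, at 0 and 1.46 CPM in WT and 0.0662 and 0 CPM in HET. Neither was called (DESeq2 adjusted p 0.366 and 0.676). Kitl and Npr2 were under 0.1 CPM in all 4 libraries. Amh, Foxl2 and Fshr had no known row. The part of these cells in the calls was not tested. Of 12 theca and stromal markers, the 2 with a known row summed to 0 to 0.166 CPM. Of 13 blood, immune and endothelial markers, 2 had a known row and summed to 1470 to 2049 CPM in WT and HET, nearly all of it from Csf1r, the receptor of macrophage colony-stimulating factor, which was not called (log2 fold change 0.17).

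The other lists gave no call. Genes with a known row numbered 2 of 16 listed for DNA methylation and repressive chromatin, 3 of 34 for the meiotic spindle and cell cycle, 1 of 16 for maternal mRNA turnover and 4 of 18 for stress and apoptosis. Of these, 2, 3, 1 and 1 were tested by DESeq2, too few to read anything from beside the 9.86% (DESeq2) and 5.88% (edgeR) of all genes with an unadjusted p under 0.05. None of their tested members had an unadjusted p under 0.05 with DESeq2 or edgeR, nor did the 5 tested of 6 genes whose symbols start like those of ribosomal proteins. That rule also took in the kinases Rps6ka5 and Rps6ka6. The mitochondrial gene ND6 was at 1489 and 1469 CPM in WT and at 2481 and 883 CPM in HET, where the HET libraries lay on both sides of WT (log2 fold change 0.25, SE 0.389). RNA interference genes (10 listed) and nuclear genes of oxidative phosphorylation (19 listed) had no known row.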

How the data were processed

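Single-end RNA sequencing was performed by the authors on cDNA amplified from pooled GV oocytes. Reads were aligned to MesAur1.0 with STAR 2.7.3a and counted over Ensembl exons with featureCounts 2.0.0, irrespective of strand. The deposited values are estimated counts (expected counts), because a read that aligned more than once, or covered more than one gene, was shared out in fractions. Values of paralogues, of genes that overlap and of antisense partners are uncertain for this reason. The authors took gene models of Piwil3 and Tex101 from RefSeq. Reads carried no molecular identifiers, and counting intervals cover counting error only. Per the study's methods, 2 oocyte libraries of low complexity were left out by the authors.

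Counts were rounded and tested with DESeq2 1.42.0 in R 4.3.3 (two-sided Wald test, all 7 libraries, genotype as the factor, Cook's filter). Independent filtering was optimised for the calling threshold, a Benjamini-Hochberg adjusted p of 0.01 over the whole table. The study's methods name DESeq2 and this threshold. Log2 fold changes were not shrunken. The quasi-likelihood test of edgeR 4.0.16 with TMM scaling was an alternative. Other alternatives changed scaling, covariates, filters, thresholds and the libraries fitted. On simulated counts with known changes, DESeq2 found more of the changed genes than edgeR and also made more false calls, above its nominal rate. Library totals of all 7 libraries were 24242442 to 33956304. Plots used matplotlib 3.10.9.

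Symbols came from pairs of identifier and symbol in the study's published gene lists (1042 of 1179 identifiers), from which no values were taken. These lists hold genes that changed in the study, so named genes are not a random choice: of the 9 called genes with a symbol, 8 were in its oocyte list, chosen on these WT and KO libraries. In those 8 a difference of KO from WT was fixed by the choice of names. Genes were named by a rule: Mov10l1, piRNA pathway genes, then called genes in order of adjusted p, the most abundant called genes and those called by edgeR, with at most 2 identifiers in each direction. The members and gene lists were chosen with earlier results of these data known. Folds given as ratios of pooled counts have, where an interval is printed, a 95% exact counting interval. Small RNAs and reads from retrotransposons are not analysed here.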

Additional observations from a re-analysis of the deposited data

How the results depend on the processing

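The comparison rests on 2 animals per genotype, and WT 2 was younger than the rest, so age and single animals cannot be told apart from genotype in most genes. Of 37 calls, 1 held in all 18 refits and 3 held without each HET or WT library in turn. The number of calls was 28 to 88 when a library was left out, 1 with edgeR, 82 at an adjusted p under 0.05, and 17, 12 and 3 at floors of 5, 10 and 50 CPM. It was 22 when only genes of at least 2 CPM were fitted, an alternative chosen after seeing the data, and 21 with a replicate block, of which 12 were among the 37. HET and WT share only number 2. Deviations of same-numbered libraries from their group means correlated at r −0.001 to 0.073. With so few libraries per genotype, this cannot show whether the numbers pair the samples. The other alternatives run for the count (TMM scaling, HET and WT libraries alone, age, a minimum of 10 counts, rounding, Cook's filter, independent filtering and its target, floors of 0 and 1 CPM, and at least 10 counts in both libraries of the higher genotype) gave 26 to 50 calls. Genes over 2-fold apart fell from 1750 (WT pair), 2007 (HET pair) and 922 (means) to 787, 958 and 223 with a pseudocount of 5, and to 622, 848 and 265 at a floor of 10 CPM; fewer genes or smaller folds follow from these settings by construction.

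Mov10l1 turned from −0.48 to 0.19 (log2) with age as a covariate, and ranged from −0.99 to 0.32 with a library left out. Among piRNA genes, directions turned with the replicate block for Ddx4 (−0.086), Tdrd7 (0.18), Tdrd9 (−0.018), Henmt1 (−0.17) and Btbd18 (−0.82), and with age for Tdrd5 (0.18) and Tex15 (0.30). With a library left out, ranges that include both directions were −0.084 to 0.35 for Piwil3, −0.015 to 0.11 for Ddx4, −0.64 to 0.038 for Mael, −0.34 to 0.18 for Tdrd1, −0.15 to 0.07 for Tdrd5, −0.37 to 0.26 for Tdrd7, −0.38 to 0.69 for Henmt1, −0.26 to 0.14 for Tex15 and −1.58 to 2.96 for Btbd18. None of these genes was called under any of these alternatives. Over the named genes other than Mov10l1, 434 alternative values kept their direction and side of the threshold, 67 lost the call, 1 gained it and 19 turned direction. The cause was not tested.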
